A study of Homo sapiens with 8 samples.

Results

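The contractile apparatus of smooth muscle was followed through 9 genes that encode its parts, ACTA2, ACTG2, TAGLN, CNN1, MYL9, MYLK, TPM1, TPM2 and CALD1, and through SRF, a transcription factor that controls many of them. These 10 genes were chosen by name, and all of them were found among the 25369 genes of the count table and passed the filter on low counts that left 14570 genes to test. They were measured by RNA-seq in LX-2 cells, an immortalized human hepatic stellate cell line, so every library derives from 1 wild-type line grown in medium with serum. Cells that had been kept on tissue culture plastic were seeded on fibronectin-coated polyacrylamide hydrogels, a soft one of 2 kPa (stiffness in the range of normal liver) or a stiff one of 40 kPa (in the range of cirrhotic liver). They were collected after 2 or 4 days, which gave 4 conditions with 2 libraries each: soft matrix for 2 days, stiff matrix for 2 days, soft matrix for 4 days and stiff matrix for 4 days. There were no cells left on plastic among the libraries compared here. The comparisons ask how the stiffness of the matrix, and the time spent on it, changed the transcripts of the contractile apparatus, whose protein ACTA2 (α-smooth muscle actin) is used as a marker of activated stellate cells.

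As background, smooth muscle and myofibroblasts contract when myosin II pulls on actin filaments. Calcium-bound calmodulin activates myosin light chain kinase (MYLK), which phosphorylates the regulatory light chain (MYL9 in smooth muscle), and a phosphatase steered by RhoA and its kinases reverses that step. Tropomyosins (TPM1, TPM2) lie along the actin filament, caldesmon (CALD1) and calponin (CNN1) bind it and restrain myosin, and transgelin (TAGLN) cross-links it. SRF binds a short DNA element, the CArG box (CC, then 6 bases that are A or T, then GG), in the promoters of many of these genes. Its cofactors of the myocardin family include MKL1, which is held in the cytoplasm by unpolymerised actin. Quiescent stellate cells have little of this apparatus, and it is built up when they turn into myofibroblasts in the injured liver.

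The CArG boxes of the promoters are shown because they are the sequence that links SRF to the other members. RefSeq promoter windows of GRCh38.p14, from 250 bases before to 50 bases after a start site, were held for 8 of the 10 genes, and TAGLN and MYL9 had no entry. Both strands were searched, and an exact box was found in 3 of these 8 genes (ACTG2, MYLK and SRF), against 1.60% of the 27305 genes with a window. ACTA2 held 2 boxes with 1 mismatch, which 21.3% of all genes with a window held at least once. The windows of CNN1, TPM1 and TPM2 held no box with up to 1 mismatch, and those of CALD1 held none that was exact. In the lines that follow the box is in capitals, with up to 15 bases on each side, and each sequence reads 5′ to 3′ on the strand of its gene.
ACTG2, box from position -110, chr2:73892883-73892922, plus strand: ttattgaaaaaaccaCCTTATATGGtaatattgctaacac
ACTG2, box from position -73, chr2:73892920-73892959, plus strand: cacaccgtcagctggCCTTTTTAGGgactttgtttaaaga
MYLK, box from position -94, chr3:123620618-123620657, minus strand: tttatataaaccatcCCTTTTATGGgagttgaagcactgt
SRF, box from position -30, chr6:43171224-43171263, plus strand: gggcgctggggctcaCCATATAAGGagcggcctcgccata
SRF, box from position -10, chr6:43171244-43171283, plus strand: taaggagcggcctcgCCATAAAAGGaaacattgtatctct
ACTA2, box with 1 mismatch from position -121, chr10:88952870-88952909, minus strand: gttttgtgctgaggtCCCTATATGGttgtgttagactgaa
ACTA2, box with 1 mismatch from position -71, chr10:88952820-88952859, minus strand: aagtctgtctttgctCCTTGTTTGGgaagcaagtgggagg
Positions count from the annotated start site of a window, which need not be that of the full-length transcript of the gene. Which MYLK transcript starts at the window shown was not checked, so its box may not belong to the promoter of the full-length kinase. A match describes these letters and was not tested for binding.

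The members differed widely in level. Levels are given as FPKM (fragments per kilobase of gene relative to library depth, scaled by the authors with size factors). These can be compared between libraries, and between genes as far as the length used for each gene holds. MYL9 was the most abundant in each of the 4 conditions by mean FPKM, with 436 ± 41.9 (SD, n = 2) on the soft matrix at 2 days. TPM2, TPM1 and TAGLN followed, at 340 ± 48.5, 294 ± 1.71 and 237 ± 27.4 FPKM in that condition. CALD1 (48.5 ± 2.55 FPKM), MYLK (28.9 ± 1.5) and SRF (19.3 ± 2.18) were intermediate. CNN1 (6.5 ± 0.042), ACTG2 (5.57 ± 1.49) and ACTA2 (5.04 ± 0.141) came last. The libraries of neighbours in this order did not overlap on the soft matrix at 2 days, except those of CNN1 with ACTG2 and of ACTG2 with ACTA2. ACTA2 thus stood at the foot of the list, ranked 10th in 3 conditions and 9th on the soft matrix at 4 days. At 4 days on the stiff matrix the order was less settled, since the libraries of MYL9, TPM2 and TAGLN overlapped, as did those of ACTG2 with MYLK, MYLK with CNN1, and CNN1 with SRF. ACTG2 rose from rank 9 on both matrices at 2 days to rank 6 on the stiff matrix at 4 days.

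**Figure D1:**
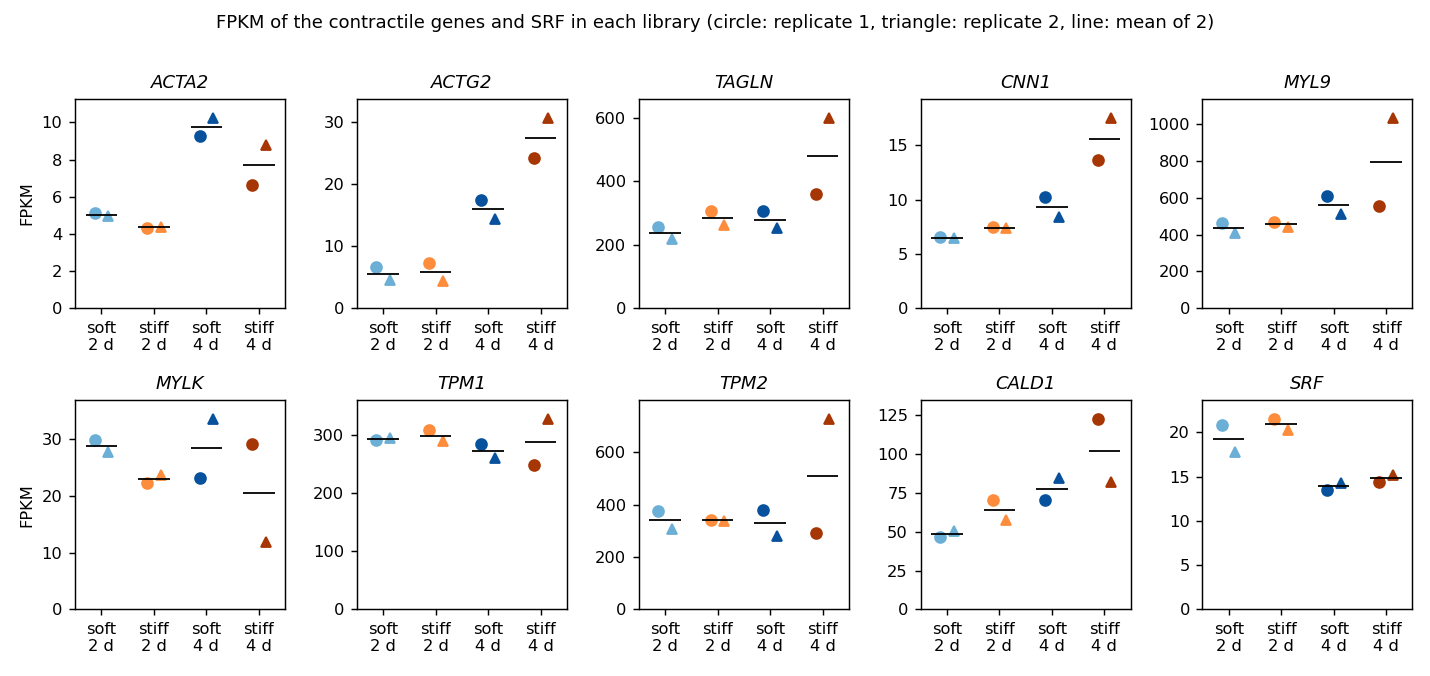
FPKM (vertical axis, from 0, a scale of its own for each gene) of the 10 genes in the 8 libraries, by matrix and day; circles are replicate 1, triangles replicate 2 and lines the mean of 2 libraries. ACTA2 and ACTG2 lie higher at 4 days than at 2 days and SRF lower, and the 2 libraries of the stiff matrix at 4 days lie far apart for TPM2 (293 and 727 FPKM), MYL9 (556 and 1035) and MYLK (29.2 and 12.0).

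The library totals lay between 19955975 and 27263935 counts, and the members had between 140 (ACTG2) and 27933 (TPM1) counts in a library. The 2 libraries of the stiff matrix at 4 days stood apart from the rest: 2084 genes differed between them by more than 1 on the log2 CPM scale (counts relative to library size, scaled by TMM), against 159 to 550 in the other conditions. Replicate 2 was higher than replicate 1 for short genes and lower for long ones, with a median log2 difference of 0.62 in the lowest quartile of gene length and -0.47 in the highest. On the soft matrix at 4 days the order was the opposite and smaller (-0.21 and 0.22). The members followed this pattern in part. The short genes TPM2 (1574 bases, the length implied by the FPKM), MYL9 (1197) and TAGLN (1557) were higher in replicate 2 of the stiff matrix at 4 days by 1.32, 0.91 and 0.75 log2 units. The long genes MYLK (8183 bases) and CALD1 (5506) were lower there by -1.28 and -0.57. ACTA2 (1851 bases), CNN1 (1586) and ACTG2 (1331) differed by 0.42, 0.37 and 0.36, and SRF (4267) by 0.08. TPM1 (3349 bases) was higher by 0.41, above the upper quartile of 0.21 in its decile of length, whose median difference was -0.08. The main results at 4 days on the stiff matrix are therefore given also without each of these libraries, as effect sizes only. Such a fit has 1 library in that condition, so the spread between its 2 libraries does not enter the test. Offsets per library for gene length, an alternative added after the data were seen, are given where they changed a call between the matrices. Why the libraries differ was not tested.

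**Figure D2:**
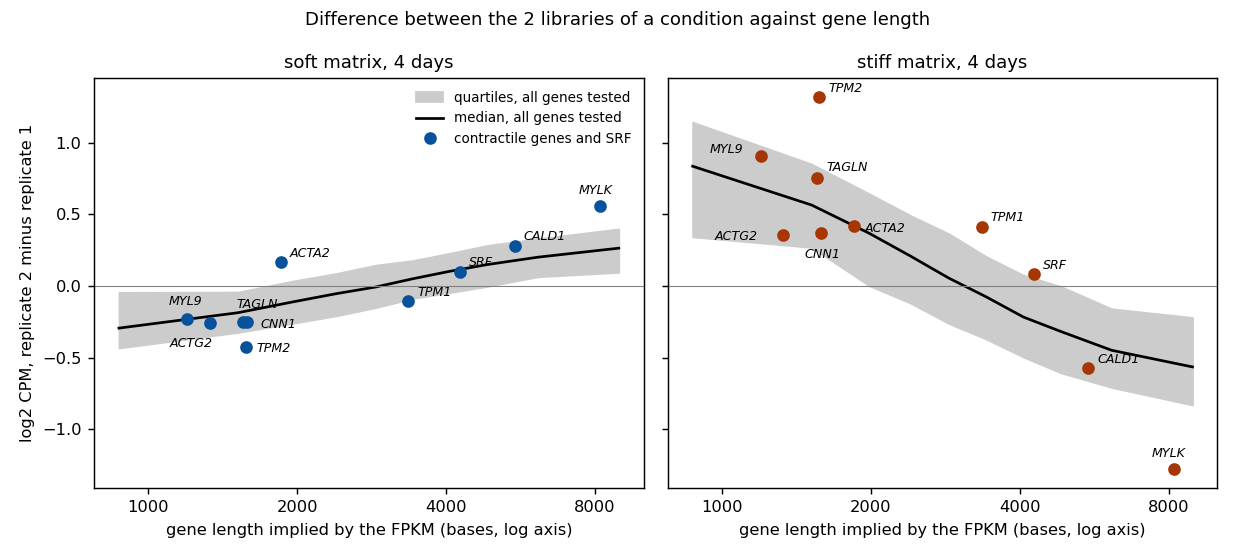
Difference in log2 CPM between replicate 2 and replicate 1 (vertical axis) against the gene length implied by the FPKM (bases, log axis) at 4 days on the soft matrix (left) and the stiff matrix (right); the line and band are the median and quartiles over deciles of length of the 14570 genes tested, and points are the members. On the stiff matrix the median falls from 0.84 in the shortest decile to -0.56 in the longest. TPM2 (1.32), TPM1 (0.41) and SRF (0.08) lie above the band there and MYLK (-1.28) below it.

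None of the 10 genes was called between the stiff and the soft matrix at either day. A call here means edgeR's quasi-likelihood test with a Benjamini-Hochberg adjusted p below 0.05 over all genes. At 2 days 0 of 10 members were called, where 0% of all genes tested were called. No member reached an unadjusted p under 0.05, as 2.82% of all genes did, and DESeq2 also called 0 members. At 4 days 0 of 10 were called, against 0.247% of all genes, and DESeq2 called 0 members. There 3 members, CNN1, TAGLN and ACTG2, were higher on the stiff matrix at an unadjusted p under 0.05, against 2.61% of all genes in that direction. Averaged over both days 0 of 10 were called by edgeR, against 0.426% of all genes, and DESeq2 called 0 members. CNN1, TAGLN and CALD1, 3 of the 10, had an unadjusted p under 0.05 over both days, against 7.7% of all genes. The median log2 fold change of the members was 0.07 at 2 days and 0.45 at 4 days, beside 0.01 and 0.02 over all genes tested. With any 1 library left out the median at 2 days lay between -0.01 and 0.18, and the median at 4 days was 0.59 without replicate 1 of the stiff matrix at that day and 0.04 without replicate 2.

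Neither smooth muscle actin was called between the matrices. ACTA2 (α-smooth muscle actin, chr10:90694831-90751096 on GRCh37, minus strand) stood at 5.14 and 4.94 FPKM on the soft and at 4.32 and 4.37 on the stiff matrix at 2 days. At 4 days its soft libraries stood at 9.27 and 10.3 FPKM and its stiff libraries at 6.64 and 8.81. Both stiff libraries were thus below both soft libraries on each day, as was the case for 6.14% of all genes tested and for no other member. The log2 fold change was -0.21 (95% interval -0.63 to 0.20, adjusted p = 0.9999) at 2 days and -0.34 (-0.75 to 0.06, adjusted p = 0.813) at 4 days. The value at 4 days was -0.14 without replicate 1 of the stiff matrix at that day and -0.56 without replicate 2. Averaged over both days it was -0.28 ± 0.13 (SE, unadjusted p = 0.0587, adjusted p = 0.688). Without replicate 2 of the stiff matrix at 4 days the average was -0.39, and without replicate 1 it was -0.18.

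ACTG2 (γ-smooth muscle actin, chr2:74119441-74146992, plus strand) showed no separation of the matrices at 2 days, with 6.62 and 4.52 FPKM on the soft and 7.34 and 4.41 on the stiff matrix. At 4 days its libraries stood at 17.5 and 14.4 FPKM on the soft matrix and at 24.1 and 30.7 on the stiff matrix. The 4 libraries of that day did not overlap. With 2 libraries against 2 such a separation can arise without any effect. For ACTG2 and the other members it is given as a description only. The log2 fold change was 0.08 (-0.60 to 0.75) at 2 days and 0.78 (0.13 to 1.42, unadjusted p = 0.0237, adjusted p = 0.567) at 4 days. The value at 4 days was 0.95 without replicate 1 of the stiff matrix at that day and 0.60 without replicate 2.

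The actin-binding genes TAGLN and CNN1 were the members whose stiff libraries lay above the soft ones on both days, as 4.79% of all genes did. TAGLN (transgelin, chr11:117070086-117078180, plus strand) had 257 and 218 FPKM on the soft matrix against 307 and 262 on the stiff matrix at 2 days. At 4 days it had 306 and 253 against 359 and 601. The values of replicate 2 of the stiff matrix at 4 days were far above all others. The log2 fold change of TAGLN was 0.26 (-0.31 to 0.83) at 2 days, 0.78 (0.20 to 1.36, adjusted p = 0.475) at 4 days and 0.52 ± 0.18 (SE, adjusted p = 0.445) over both days. Without replicate 1 of the stiff matrix at 4 days the effect at 4 days was 1.11, and without replicate 2 it was 0.36. Over both days these values were 0.68 and 0.31.

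CNN1 (calponin 1, chr19:11649582-11661138, plus strand) varied little between replicates at 2 days, with 6.53 and 6.47 FPKM on the soft and 7.42 and 7.40 on the stiff matrix. At 4 days it had 10.2 and 8.43 FPKM on the soft and 13.7 and 17.5 on the stiff matrix. Its log2 fold change was 0.19 (-0.22 to 0.60) at 2 days and 0.74 (0.33 to 1.14) at 4 days. The effect at 4 days had the smallest unadjusted p among the members (0.00297) and missed the threshold after adjustment over all genes (adjusted p = 0.236). Over both days it was 0.46 ± 0.12 (SE, adjusted p = 0.282). The effect at 4 days was 0.92 without replicate 1 of the stiff matrix at that day and 0.55 without replicate 2. Over both days these values were 0.55 and 0.37. With offsets for gene length TAGLN and CNN1 were the members called over both days, at log2 fold changes of 0.48 (adjusted p = 0.0483) and 0.44 (adjusted p = 0.0469), where that fit called 209 genes.

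On the motor side of the apparatus, neither MYL9 nor MYLK was called between the matrices in the fit of all libraries. MYL9 (regulatory light chain of smooth muscle myosin, chr20:35169900-35179850, plus strand) had 465 and 406 FPKM on the soft and 469 and 442 on the stiff matrix at 2 days, and 607 and 510 against 556 and 1035 at 4 days. The libraries overlapped on both days. Its log2 fold change was 0.06 (-0.56 to 0.69) at 2 days and 0.51 (-0.12 to 1.13) at 4 days. The effect at 4 days rested on replicate 2 of the stiff matrix, being 0.90 without replicate 1 and -0.01 without replicate 2.

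MYLK (myosin light chain kinase, chr3:123328896-123603179, minus strand) was lower in both stiff libraries at 2 days, with 29.9 and 27.8 FPKM on the soft and 22.3 and 23.7 on the stiff matrix. At 4 days the libraries overlapped, with 23.2 and 33.6 against 29.2 and 12.0. The log2 fold changes were -0.33 (-1.18 to 0.52) and -0.47 (-1.32 to 0.38). At 4 days the value was -1.24 without replicate 1 of the stiff matrix and 0.04 without replicate 2. When only the 2-day libraries were fitted, whose replicates were close, MYLK was called at -0.34 (adjusted p = 0.00859) and CALD1 at 0.39 (adjusted p = 0.00397), with 667 genes called in all.

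The regulators of the thin filament were mixed. CALD1 (caldesmon, chr7:134429003-134655480, plus strand) had 46.7 and 50.3 FPKM on the soft and 70.4 and 57.5 on the stiff matrix at 2 days, without overlap. At 4 days it had 70.5 and 84.4 against 122 and 81.7, with overlap. Its log2 fold change was 0.40 at 2 days (-0.10 to 0.90), 0.39 at 4 days (-0.11 to 0.89) and 0.40 ± 0.15 (SE, unadjusted p = 0.0324, adjusted p = 0.551) over both days. At 4 days the effect on CALD1 was 0.66 without replicate 2 of the stiff matrix and 0.09 without replicate 1. Over both days it was 0.52 without replicate 2 and 0.24 without replicate 1.

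TPM1 (α-tropomyosin, chr15:63334819-63364114, plus strand) ranged from 248 to 328 FPKM over all 8 libraries. Its log2 fold change was 0.03 (-0.36 to 0.41) at 2 days and 0.07 (-0.31 to 0.46) at 4 days, and without scaling factors these became -0.04 and -0.06. At 4 days the value was 0.27 without replicate 1 of the stiff matrix and -0.14 without replicate 2. TPM2 (β-tropomyosin, chr9:35681989-35690053, minus strand) had 374 and 306 FPKM on the soft and 343 and 338 on the stiff matrix at 2 days, and 380 and 279 against 293 and 727 at 4 days. A single library, replicate 2 of the stiff matrix at 4 days, exceeded all others for TPM2. Its log2 fold change at 4 days was 0.63 (-0.24 to 1.49), and it was 1.15 without replicate 1 and -0.17 without replicate 2.

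SRF (chr6:43139007-43149244, plus strand) had 20.8 and 17.7 FPKM on the soft and 21.5 and 20.3 on the stiff matrix at 2 days, and 13.5 and 14.3 against 14.4 and 15.2 at 4 days. At 2 days the libraries of the matrices overlapped. The log2 fold change was 0.12 (-0.20 to 0.43) at 2 days and 0.08 (-0.23 to 0.40) at 4 days, and at 4 days its sign turned without scaling factors (-0.04). Without replicate 1 or replicate 2 of the stiff matrix at 4 days the value there was 0.13 or 0.05. The interval at 2 days spans 0.871-fold to 1.35-fold. Whether the effect of stiffness changed with time was tested as an interaction, in which edgeR and DESeq2 each called 0 of 10 members, and edgeR 0% of all genes. No member had an unadjusted p under 0.05 there, as 1.95% of all genes did. The largest such changes among the members were 0.70 for ACTG2 (-0.23 to 1.63) and 0.63 for TPM2 (-0.60 to 1.85), and that of CNN1 was 0.55 (-0.02 to 1.12, unadjusted p = 0.0577). Without replicate 1 of the stiff matrix at 4 days the changes of ACTG2, TPM2 and CNN1 were 0.88, 1.15 and 0.74. Without replicate 2 they were 0.53, -0.16 and 0.37.

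**Figure D3:**
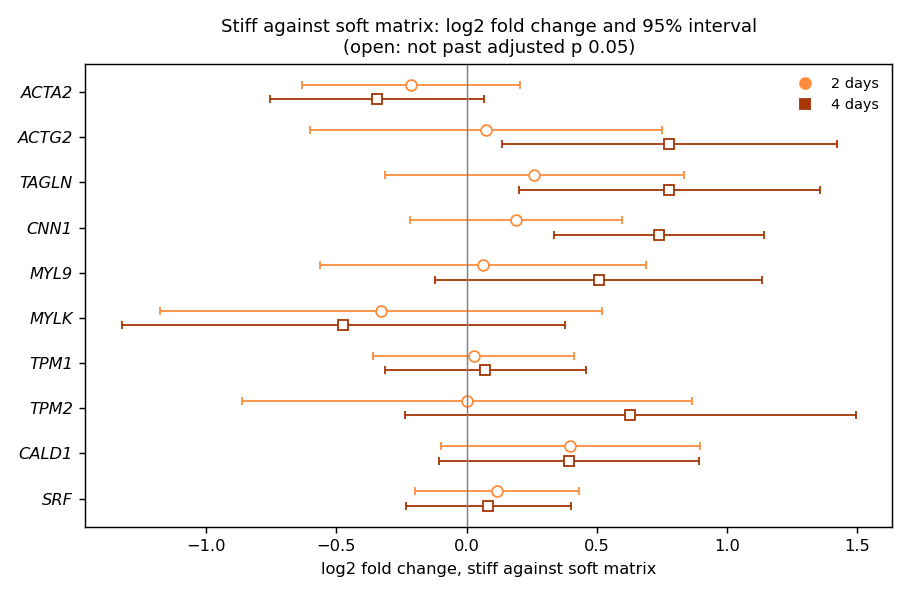
Log2 fold change between the stiff and the soft matrix (horizontal axis) with its 95% interval from edgeR's quasi-likelihood fit, for each gene at 2 days (circles) and 4 days (squares); open symbols did not pass an adjusted p of 0.05. No symbol is filled, CNN1, TAGLN and ACTG2 have intervals above 0 at 4 days, and ACTA2 has a negative value on both days (-0.21 and -0.34).

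More members were called with time on the matrix than between the matrices. Between 2 and 4 days 4 of 10 members were called on the soft matrix, against 27.4% of all genes tested, and 5 of 10 on the stiff matrix, against 27.6%. The share of members is thus not far from that of all genes. The comparisons of time use the same libraries as those of stiffness and are not independent of them. On the soft matrix ACTA2, ACTG2 and CALD1 rose and SRF fell. On the stiff matrix ACTA2, ACTG2, CNN1 and CALD1 rose and SRF fell. The median log2 fold change of the members was 0.31 on the soft and 0.73 on the stiff matrix, beside 0.02 and 0.03 over all genes. With any 1 library left out the median on the soft matrix lay between 0.21 and 0.43. The median on the stiff matrix was 1.07 without replicate 1 of that matrix at 4 days and 0.34 without replicate 2.

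ACTG2 had the largest rise of the members on both matrices. Its level went from 4.52 and 6.62 to 14.4 and 17.5 FPKM on the soft matrix, a log2 fold change of 1.53 ± 0.29 (SE, adjusted p = 0.00886) or 2.89-fold. On the stiff matrix it went from 4.41 and 7.34 to 24.1 and 30.7 FPKM, a log2 fold change of 2.24 ± 0.29 (adjusted p = 0.0029) or 4.71-fold. ACTA2 rose 1.96-fold on the soft matrix (0.97 ± 0.18, adjusted p = 0.00808) and 1.79-fold on the stiff matrix (0.84 ± 0.18, adjusted p = 0.0142). Without replicate 1 or replicate 2 of the stiff matrix at 4 days ACTA2 on the stiff matrix stood at 1.04 or 0.61, and CNN1 at 1.26 or 0.88. For both actins all libraries of 4 days lay above all libraries of 2 days on the same matrix.

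SRF went the other way, from 17.7 and 20.8 to 13.5 and 14.3 FPKM on the soft matrix and from 20.3 and 21.5 to 14.4 and 15.2 on the stiff matrix. Its log2 fold changes were -0.45 ± 0.14 (SE, adjusted p = 0.0434) and -0.48 ± 0.14 (adjusted p = 0.0345), and the libraries of the days did not overlap. Transcripts of the factor thus fell while those of ACTA2 and ACTG2 rose in the same libraries.

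CNN1 rose 2.12-fold on the stiff matrix (1.09 ± 0.18, adjusted p = 0.00554), and on the soft matrix its log2 fold change of 0.54 ± 0.18 missed the threshold (adjusted p = 0.0557). CALD1 rose by 0.69 ± 0.22 on the soft (adjusted p = 0.0475) and 0.69 ± 0.22 on the stiff matrix (adjusted p = 0.0486), both close to the threshold. This call was kept in 4 of 13 other settings on the soft and 2 of 13 on the stiff matrix, and lost among others with RLE factors (adjusted p = 0.0512 and 0.0505). On the stiff matrix the rise of CALD1 was 0.37 without replicate 1 of that matrix at 4 days and 0.94 without replicate 2. TAGLN had a log2 fold change of 0.25 (-0.32 to 0.83) on the soft and 0.77 (0.19 to 1.35, adjusted p = 0.0537) on the stiff matrix. MYL9 had 0.38 (-0.25 to 1.002) and 0.82 (0.19 to 1.45, adjusted p = 0.0580). Without replicate 1 of the stiff matrix at 4 days TAGLN stood at 1.10 and MYL9 at 1.20 on that matrix. Without replicate 2 they stood at 0.34 and 0.29. For TAGLN and MYL9 the libraries of 4 days lay above those of 2 days on each matrix, as did those of 38.5% of all genes on the soft and 31.6% on the stiff matrix. The 3 remaining members, MYLK, TPM1 and TPM2, had values between -0.15 and 0.60 and were not called on either matrix. On the stiff matrix MYLK and TPM2 stood at -0.93 and 1.11 without replicate 1 of the stiff matrix at 4 days, and at 0.35 and -0.21 without replicate 2.

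The changes of the members called with time were also estimated with each library left out, as effect sizes only. On the soft matrix the log2 fold change then lay between 1.28 and 1.84 for ACTG2 and between 0.88 and 1.03 for ACTA2. It lay between 0.55 and 0.80 for CALD1 and between -0.56 and -0.33 for SRF. On the stiff matrix it lay between 1.91 and 2.65 for ACTG2, 0.61 and 1.04 for ACTA2, and 0.88 and 1.26 for CNN1. There it lay between 0.37 and 0.94 for CALD1 and between -0.54 and -0.44 for SRF. In a separate fit of the stiff libraries, with its own filter on low counts, no member was called and no other gene was.

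**Figure D4:**
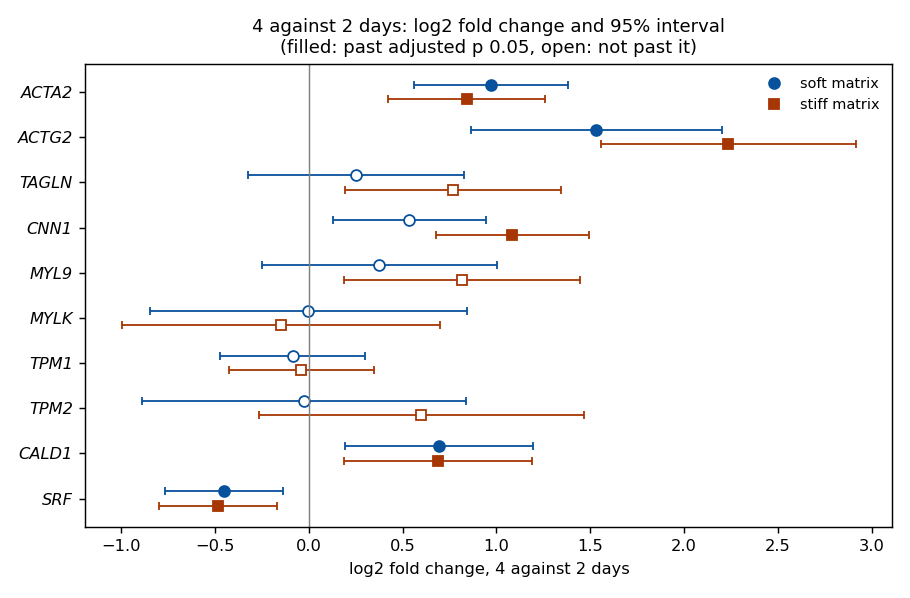
Log2 fold change from 2 to 4 days (horizontal axis) with its 95% interval from edgeR's quasi-likelihood fit, for each gene on the soft (circles) and the stiff matrix (squares); filled symbols passed an adjusted p of 0.05. ACTG2 (1.53 and 2.24) and ACTA2 (0.97 and 0.84) lie to the right, SRF (-0.45 and -0.48) to the left, and CNN1 is filled on the stiff matrix.

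The share of each smooth muscle form within its own protein family was computed from the FPKM of the same library, as a description with no test. Actin of LX-2 cells was almost all of the non-muscle kind. ACTB and ACTG1, the cytoplasmic actins, stood at 1383 to 4452 and 2360 to 4683 FPKM, and ACTA2 and ACTG2 together made up 0.187 to 0.458% of the summed FPKM of 6 actins. The striated actins ACTA1 and ACTC1 were at or under 0.58 FPKM. ACTA2 held 0.117 and 0.132% of actin on the soft and 0.0873 and 0.0931% on the stiff matrix at 2 days, and 0.140 and 0.173% against 0.0987 and 0.0960% at 4 days. Both stiff libraries lay below both soft libraries on each day. ACTG2 held 0.265 and 0.243% on the soft and 0.359 and 0.335% on the stiff matrix at 4 days.

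The balance of the smooth muscle actins differed with the condition. The FPKM ratio of ACTG2 to ACTA2 was 0.914 and 1.29 on the soft matrix at 2 days, 1.01 and 1.70 on the stiff matrix at 2 days, 1.40 and 1.89 on the soft matrix at 4 days, and 3.48 and 3.64 on the stiff matrix at 4 days. The libraries that otherwise stood apart gave close values of this ratio, and both were above those of the other 6 libraries.

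TAGLN took a growing part of its pair with TAGLN2, the transgelin found in many cell types. It made up 25.1 to 26.8% of their summed FPKM on the soft matrix at 2 days, 28.1 to 30.7% on the stiff matrix at 2 days, 33.8 to 36.3% on the soft matrix at 4 days and 40.5 to 47.7% on the stiff matrix at 4 days. These ranges did not overlap, and the genes are of similar implied length (1557 and 1754 bases). CNN1 made up 2.83 to 3.31% of the calponins on the soft matrix over both days and 4.02 to 5.25% on the stiff matrix at 4 days. MYL9 held 28.4 to 33.0% of the regulatory light chains (with MYL12A and MYL12B) in all 8 libraries, and the ranges overlapped between the matrices at 4 days. TPM1 and TPM2 together held at most 60.6% of the tropomyosins in 7 libraries and 70.4% in replicate 2 of the stiff matrix at 4 days. The implied lengths differ widely in this family, with 11580 bases for TPM3, 3349 for TPM1, 3003 for TPM4 and 1574 for TPM2. TPM3 had 14560 to 18625 counts in a library and TPM2 9466 to 20134, so this share depends on the lengths used.

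**Figure D5:**
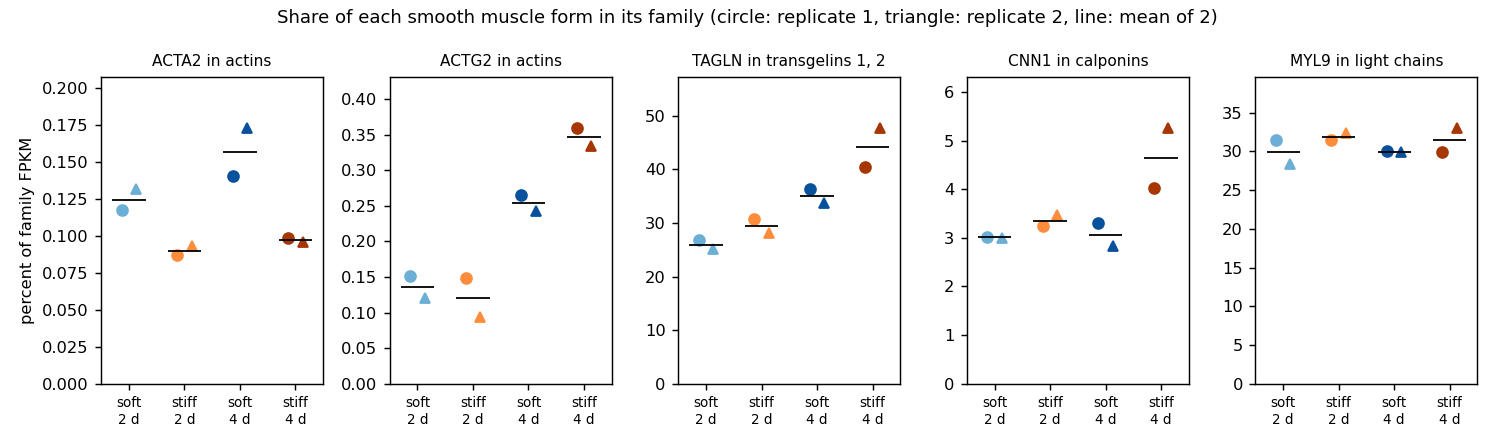
Share (percent, from 0, a scale of its own in each panel) of the smooth muscle form in the summed FPKM of its family in each library, by matrix and day; circles are replicate 1, triangles replicate 2 and lines the mean of 2 libraries. TAGLN rises from 25.1 to 26.8% on the soft matrix at 2 days to 40.5 to 47.7% on the stiff matrix at 4 days, and ACTA2 lies lower on the stiff than on the soft matrix of the same day.

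Other genes of the same machinery were taken from lists. No gene of these lists was called between the matrices. Of 11 SRF cofactors, 1 rose and 1 fell with time on the soft matrix, and 2 rose and 1 fell on the stiff matrix. MYOCD (myocardin, the smooth muscle coactivator of SRF) rose by 2.04 ± 0.26 (adjusted p = 0.00293) and 3.83 ± 0.30 (adjusted p = 0.00113) on the log2 scale, from levels of 0.09 to 0.34 FPKM at 2 days to 1.11 to 1.86 FPKM at 4 days. MKL1 (a myocardin-related coactivator) fell by 1.09 on both matrices (adjusted p = 0.00286 and 0.00273), from 12.3 to 15.02 FPKM at 2 days to 6.11 to 6.93 at 4 days. CSRP2, a LIM protein of smooth muscle, rose on the stiff matrix (1.004 ± 0.31, adjusted p = 0.0482). Between the matrices the smallest unadjusted p of the list belonged at 2 days to MYOCD, with a value of -1.48 ± 0.31 (unadjusted p = 0.0016, adjusted p = 0.752), and at 4 days to CSRP1 (0.40 ± 0.14, unadjusted p = 0.021, adjusted p = 0.538). The interaction of MYOCD was 1.79 ± 0.40 (unadjusted p = 0.00207, adjusted p = 0.9997).

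Of 15 other smooth muscle genes 12 passed the filter, and some of the 15 were near absent. DES had at most 2 counts in a library, ITGA8 at most 1 and PLN at most 2, while the smooth muscle myosin heavy chain MYH11 stood at 0.10 to 0.26 FPKM. LMOD1 (leiomodin 1, an actin nucleator of smooth muscle) rose with time on the soft (1.47 ± 0.25) and stiff matrix (1.74 ± 0.25), from 0.23 to 0.26 FPKM at 2 days to 0.65 to 0.90 FPKM at 4 days. SMTN (smoothelin) was well expressed, at 35.2 to 92.0 FPKM over all libraries. It fell with time by 0.92 and 0.66 on the log2 scale on the soft and stiff matrix (adjusted p = 0.00468 and 0.0136). It was also the gene of this list with the smallest unadjusted p between the matrices at 4 days, where it was higher on the stiff matrix (0.60 ± 0.14, unadjusted p = 0.00278, adjusted p = 0.234). At 2 days that gene was PDLIM3, with -0.93 ± 0.27 (unadjusted p = 0.0094, adjusted p = 0.9999). PDLIM7, a PDZ and LIM protein of actin filaments, fell on the soft matrix (-0.63 ± 0.19, adjusted p = 0.0429), and the other 9 genes tested were called in no comparison.

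Of 13 non-muscle counterparts of the members, 4 rose and 0 fell with time on the soft matrix and 4 rose and 1 fell on the stiff matrix, beside the 27.4 and 27.6% of all genes called. ACTB rose by 1.01 ± 0.21 and 1.07 ± 0.21 on the log2 scale (adjusted p = 0.0117 and 0.00987). MYL12A, a non-muscle regulatory light chain, rose by 0.70 and 1.02, and CNN2, calponin 2, by 0.67 and 0.69. CNN3 was the 4th riser on the soft matrix (0.46 ± 0.13), and MYH14, a non-muscle myosin heavy chain, was the gene that fell on the stiff matrix (-0.60 ± 0.19). Of 15 genes that control the light chain, 4 rose and 3 fell on the soft matrix, and 5 rose and 2 fell on the stiff matrix, beside the same shares of all genes. PPP1CB, the catalytic subunit of myosin phosphatase, rose by 1.31 ± 0.13 and 1.02 ± 0.12 (adjusted p = 0.00141 and 0.00242). Among its regulatory subunits PPP1R12B (0.64 to 1.55 FPKM) and PPP1R12C fell by 0.93 and 1.13 on the soft matrix and by 0.93 and 0.93 on the stiff matrix. PPP1R12A, another of them, stood at 19.7 to 32.3 FPKM over all libraries and was not called lower. PPP1R14B, an inhibitor of the phosphatase, fell on the soft matrix (-1.31 ± 0.37), and CALM2, a calmodulin gene, rose on the stiff matrix (0.93 ± 0.19). The rise of CALM2 was not particular to that matrix. Its mean CPM went from 728 to 1327 on the soft and from 855 to 1626 on the stiff matrix.

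The cells carried the mesenchymal markers of a stellate cell line and few markers of other liver cells. VIM stood at 921 to 2938 FPKM and COL1A1 at 83.9 to 172 FPKM, but LRAT had at most 1 count in a library and DES at most 2, so these markers of quiescent or early stellate cells were at or near 0. The summed FPKM of 5 endothelial markers was at most 0.201, that of 5 hepatocyte markers at most 2.98 (nearly all SERPINA1), and CD3E and LYVE1 had 0 counts. KRT7 (5.47 to 11.05 FPKM) and CD68 (45.2 to 63.4 FPKM) were the markers of other cells with substantial levels. VIM rose with time on both matrices (1.12 ± 0.23 and 0.96 ± 0.23), NGFR fell on the stiff matrix (-0.96 ± 0.22), and the immune markers PTPRC and EMR1 rose on both from levels of at most 0.36 FPKM at 2 days. In bulk RNA a smaller share of cells that express a gene and less RNA per cell cannot be told apart.

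The genes most alike in pattern to 4 members were found by Pearson's r of log2 CPM over the 8 libraries, among 12043 other genes whose average log2 CPM reached 1. They are given as a description, since the 8 points form 4 conditions and share the length pattern of the 4-day libraries. Those nearest to ACTA2 were TMBIM4 (r = 0.985), VTN (0.984) and IST1 (0.984). Nearest to ACTG2 were LOC728730 (0.988), DAP (0.986) and RRM2 (0.985). Nearest to TAGLN were ATP5B (0.993), WNT5B (0.990) and GRPEL1 (0.980), and nearest to SRF were IFRD2 (0.991), CDR2L (0.990) and PPP6R1 (0.990). No member was among the 3 nearest genes of another. Between members r was highest for TAGLN with MYL9 (0.94), and SRF had negative values with ACTA2 (-0.89) and ACTG2 (-0.79).

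Some reads of the members could belong to other genes. The exons of ACTA2, TAGLN and MYLK overlap those of FAS, PCSK7 and MYLK-AS1 on the opposite strand by 380, 2233 and 612 bases in GENCODE v44lift37. There the exons of the 3 members hold 5628, 6550 and 31537 bases, against implied lengths of 1851, 1557 and 8183 bases in the deposited FPKM. The counts thus used other gene models, and how far these overlaps apply to them is not known. The strand setting of the counting is not given in the sources used here. Windows of 50 bases shared with another locus made up 4.31% of the exonic sequence of TAGLN, 1.19% of ACTA2 and 0.301% of ACTG2, and at most 1.24% of the other members.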

How the data were processed

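RNA-seq libraries of LX-2 cells from 4 conditions, with 2 libraries each, were grouped by the sample labels. The authors trimmed reads with Trim Galore, mapped them to hg19 with STAR 2.7.1a and deposited counts per gene from htseq-count. The gene annotation is not given in the sources used here. FPKM were deposited as well, and they were scaled between libraries by size factors of the median-of-ratios kind. The study described the replicates of a condition as independent experiments, and with 2 libraries each the p-values measure only the spread between these libraries.

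Counts of genes passing filterByExpr by condition (14570 of 25369) were scaled by TMM (factors 0.870 to 1.08) and fitted in 1 quasi-likelihood model of the 4 conditions over all 8 libraries with edgeR 4.0.16 in R 4.3.3, with Benjamini-Hochberg adjustment over all genes and a threshold of 0.05. The study's own tool, DESeq2 (1.42.0 here), was an alternative. The prior degrees of freedom were 3.86 and the common dispersion 0.0281. SE was obtained from the log2 fold change and the F statistic, and 95% intervals use 7.86 degrees of freedom. Log2 CPM used a prior count of 2. Intervals and totals speak of these libraries only, and counts as low as 140 for ACTG2 carry more counting error than those of the abundant members. The script was tested on simulated data. Implied lengths are the ratio of count to FPKM, up to a constant, and were whole numbers in all 20029 genes with one.

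Alternatives were DESeq2, other scaling (RLE factors, or none), other filters (a total of 1 count, or a minimum of 10 in each library), fits of only the libraries compared, the replicate number as a block, limma 3.58.1 with voom and sample quality weights, limma on log2 FPKM with a pseudocount of 1 or 0.1 (FPKM reaching 1 in 2 libraries, and for the first also unfiltered), and leaving out each library. A crossed block at 4 days and offsets per library from splines of log length with 5 degrees of freedom were added after seeing the data. The members, the lists and the length alternative were chosen with earlier results of these data known. All 10 members are named in each comparison. From each other list the rule names the genes called (the 4 with the largest change where there were more) or, with none called, the gene with the smallest unadjusted p, and not all of the latter are printed. Genes most alike are the 3 with the highest r. The cell markers named for their level were chosen after their values were seen. 3 older symbols were matched by synonym (MKL1, MKL2 and EMR1). Coordinates come from GENCODE v44lift37 on GRCh37, and promoter windows from RefSeq on GRCh38.p14, used only for sequence. Protein sequences were not used here.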

Additional observations from a re-analysis of the deposited data

Results flagged for a closer look

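PPP1CB, the catalytic subunit of myosin phosphatase, was set apart because both of its stiff libraries lay above the soft ones at 2 days and below them at 4 days. The change of its stiffness effect from 2 to 4 days was -0.28 ± 0.17 (SE) on the log2 scale in edgeR's interaction test, with an unadjusted p of 0.143 and an adjusted p of 0.9997, so the difference did not pass. GATA6, a transcription factor in the list of SRF cofactors, went the other way, with both stiff libraries below the soft ones at 2 days and above them at 4 days. Its interaction was 2.43 ± 0.73 (unadjusted p = 0.0104, adjusted p = 0.9997), which did not pass either, and it had only 5 to 28 counts in a library. No member met such a condition, and groups of 2 libraries are too small for a check of single divergent libraries.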

How the results depend on the processing

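The number of members called between the matrices was 0 at each day and over both days in edgeR, and it stayed 0 under most alternatives. It became 2 at 2 days (MYLK and CALD1) when only the libraries compared were fitted, and 2 over both days (TAGLN and CNN1) with offsets for gene length. The number called also moved away from 0 at 4 days and over both days when either stiff library of 4 days was left out. That of the interaction moved without replicate 1. These fits are given as effect sizes only. With 1 library left out the median log2 fold change of the members lay between 0.04 and 0.59 at 4 days. It lay between 0.05 and 0.36 over both days and between 0.03 and 0.49 in the interaction. From 2 to 4 days 4 members were called in soft culture and 5 in stiff culture. On the soft matrix this became 2 with no filter beyond 1 count and 2 with limma on unfiltered log2(FPKM + 1), and on the stiff matrix 3 with voom and sample quality weights and 0 when only its 4 libraries were fitted. With 1 library left out it lay between 0 and 6 on the soft and between 1 and 9 on the stiff matrix. The cause of these shifts was not tested. Fits with fewer libraries have fewer residual degrees of freedom, but the prior degrees of freedom were estimated anew in each fit, so their total need not be lower.

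Same-numbered libraries of the matrices did not deviate together (correlation -0.036 at 2 days and -0.49 at 4 days), and no label says what a number shares. With the replicate number as a block, 0 members were called in all 6 comparisons (10 genes in all on the soft and 8 on the stiff matrix over time), and MYLK on the soft matrix over time changed from -0.002 to 0.21. With the numbers of the stiff matrix crossed at 4 days, 3 members were called at 4 days and 3 over both days (300 and 414 genes in all). Over time 6 were called on the soft and 8 on the stiff matrix (5579 and 6065 genes in all). There TPM1 became 0.022 and 0.055 and TPM2 on the soft matrix 0.34.

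Directions turned for some members, near 0 in most settings and farther from 0 when 1 library was left out. Without scaling factors, which moved the median log2 fold change over all genes by -0.11 at 4 days and by -0.13 over time on the stiff matrix, the effect of stiffness became -0.0014 for MYL9, -0.041 for TPM1 and -0.062 for TPM2 at 2 days, and -0.059 for TPM1 and -0.039 for SRF at 4 days. TPM2 at 2 days became -0.010 with a minimum of 10 counts in each library and -0.0077 in the fit of its 4 libraries, and over time on the soft matrix 0.020 with offsets for gene length. With 1 library left out, the effect of stiffness at 2 days spanned -0.34 to 0.40 for ACTG2, -0.032 to 0.17 for MYL9, -0.022 to 0.075 for TPM1 and -0.14 to 0.16 for TPM2. At 4 days it spanned -0.0080 to 0.90 for MYL9, -1.24 to 0.039 for MYLK, -0.14 to 0.27 for TPM1 and -0.17 to 1.15 for TPM2, whose interaction spanned -0.16 to 1.15. Over time the spans were -0.31 to 0.22 for MYLK and -0.28 to 0.17 for TPM2 on the soft matrix, and -0.93 to 0.35 for MYLK, -0.27 to 0.15 for TPM1 and -0.21 to 1.11 for TPM2 on the stiff matrix. The directions of ACTA2, TAGLN, CNN1 and CALD1 in the comparisons printed for them, and those of SRF over time, did not turn under any alternative run.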
